A study of Mus musculus with 2 samples.

Results

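Ccl24-high macrophages were tumour leukocytes that carried at least 20 unique molecular identifiers (UMIs, each standing for 1 captured RNA molecule) of Ccl24 and at least 2 of Mrc1. They also held fewer than 5 UMIs of Mmp12 plus Mmp13, less than 0.5% of their UMIs in Hspa1a plus Hspa1b, fewer than 4 detected genes of Nos2, Egln3, Ndrg1, Adm, Hilpda and Ero1l, and 0 UMIs of Cd3e, Cd79a and Flt3. Of 14809 cells that passed quality filters, 362 met this rule. They were 75 of 7675 cells in the UDSP-Hep library and 287 of 7134 cells in the PBS library. The cells came from subcutaneous B16F10-OVA tumours, a mouse melanoma line that makes ovalbumin as a model antigen, and were sorted on CD45, a surface protein of leukocytes. Mice of the UDSP-Hep group had been injected with UDSP-Hep, an agent the labels name without describing, and mice of the PBS group with the saline buffer PBS. Injections in both groups fell on days 10, 12, 14 and 16, and harvest was on day 19. Each group gave 1 droplet library, pooled from 3 tumours whose cells cannot be told apart here, and the strain, age and sex of the mice are not given in the sources used here. There was therefore no replicate, and the differences between groups below have no test. Differences in level are counted as higher or lower from 1.5-fold, and intervals cover counting error only, at 95%.

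CCL24, also called eotaxin-2, is a chemokine that draws eosinophils through the receptor CCR3. Macrophages make it in alternative activation, a state driven by interleukin 4 or interleukin 13 through the transcription factor STAT6. Mrc1 encodes the mannose receptor CD206, an endocytic receptor of the same state, and Arg1, Chil3 and Retnla are its classical mouse genes. In growing tumours such cells are known to derive largely from blood monocytes.

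Retnla (RELMα) and Tmem26, a transmembrane protein gene, were the only ones of 11 looked-up genes with a promoter entry whose promoter held a STAT-type element, and both are shown for that reason. The element searched was TTCNNNNGAA, which reads the same on both strands. The promoters were the 250 bases before and 50 bases after each start in RefSeq, build GRCm38.p6, and 17 genes were looked up, namely markers of the cells and genes that were highest in them. The capitals mark the element, on the plus strand at chr16:48842359-48842658 for Retnla and chr10:68723496-68723795 for Tmem26.
Retnla: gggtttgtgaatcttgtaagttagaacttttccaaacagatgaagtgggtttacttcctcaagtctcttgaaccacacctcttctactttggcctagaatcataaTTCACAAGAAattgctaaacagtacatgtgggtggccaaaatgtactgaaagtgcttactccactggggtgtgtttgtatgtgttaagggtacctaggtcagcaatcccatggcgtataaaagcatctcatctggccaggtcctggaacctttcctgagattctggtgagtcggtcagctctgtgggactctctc
Tmem26: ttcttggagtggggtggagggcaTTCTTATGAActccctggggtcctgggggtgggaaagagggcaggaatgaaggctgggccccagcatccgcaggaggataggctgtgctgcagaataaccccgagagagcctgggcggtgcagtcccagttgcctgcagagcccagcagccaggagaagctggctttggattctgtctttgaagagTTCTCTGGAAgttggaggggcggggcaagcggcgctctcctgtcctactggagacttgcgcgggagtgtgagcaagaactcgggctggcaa
The Retnla element began 145 bases before the start site, at -145. Tmem26 had 2 elements, which began at -227 and -41. Of all 32851 promoters in the table, 2284 (6.95%) held the element, so a match describes letters and not a bound site.

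The members were chosen on Ccl24 and Mrc1, so their levels are a description. Ccl24 (ENSMUSG00000004814, chromosome 5, 135569937 to 135573049, minus strand, GRCm38) had a median of 53 UMIs per member cell in the UDSP-Hep library, between 20 and 721, and a median of 77 in the PBS library, between 20 and 574. Its summed level was 5416 CPM (UMIs of the gene per 1000000 UMIs of the member cells) in UDSP-Hep members and 8810 CPM in PBS members. In the UDSP-Hep library 1 cell held 11.2% of all Ccl24 UMIs of the members, and in the PBS library 1.68%. Mrc1 stood at 1907 CPM in UDSP-Hep members and 1987 CPM in PBS members. T cells, which should lack Ccl24, carried at least 1 UMI in 2.90% of 1206 cells in the UDSP-Hep library and 15.4% of 1043 cells in the PBS library, at median depths of 5180.5 and 5989 UMIs. At least 20 UMIs were reached by 0 T cells in the UDSP-Hep library and by 3 in the PBS library, where the highest T cell held 80. The members had median depths of 12454 UMIs in the UDSP-Hep library and 11704 UMIs in the PBS library, and no barcode among them occurred in both libraries.

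The threshold of 20 Ccl24 UMIs did not fall in a gap. In the UDSP-Hep library 12 members had 20 to 24 Ccl24 UMIs and 10 otherwise matching cells had 15 to 19. In the PBS library each of these ranges held 20 cells. Just inside the threshold Chil3 stood at 1366 CPM in the UDSP-Hep library, against 1433 CPM just outside it. In the PBS library the same values were 2205 CPM inside and 3115 CPM outside.

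**Figure D1:**
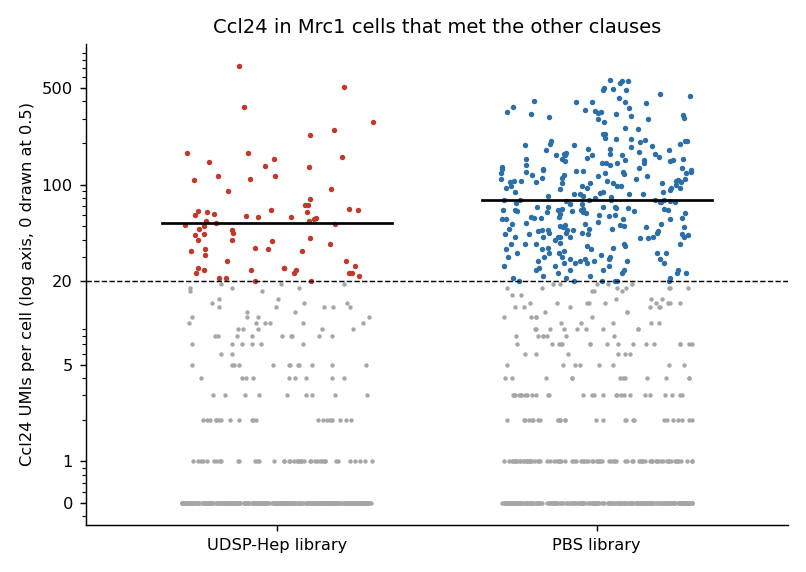
Ccl24 UMIs in each Mrc1 cell that met the other clauses of the rule, on a log axis with 0 drawn at 0.5, for the UDSP-Hep library (left) and the PBS library (right). Coloured points at or above the dashed line at 20 UMIs are the 75 and 287 members, the black bars are their medians of 53 and 77 UMIs, and grey points below the line are cells with fewer Ccl24 UMIs.

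The name of these cells was checked against their genes. Csf1r, the receptor for the macrophage growth factor CSF1, was detected in 94.7% of UDSP-Hep members and 94.8% of PBS members. Adgre1, which encodes the macrophage antigen F4/80, was detected in 74.7% and 74.9%. Arg1, which breaks down arginine, was detected in 78.7% of UDSP-Hep members and 86.4% of PBS members. Fn1, fibronectin, was detected in 86.7% and 89.9%, and Chil3, the chitinase-like protein Ym1, in 66.7% and 70.0%, in the same order. By contrast, Retnla was detected in 7 of 75 UDSP-Hep members (9.33%, interval 3.84 to 18.3%) and 61 of 287 PBS members (21.3%, interval 16.7 to 26.5%). Cd163, the haemoglobin-haptoglobin scavenger receptor, was detected in 10 UDSP-Hep members (13.3%) and 38 PBS members (13.2%). In T cells Retnla was detected in 0.995% and 3.26% and Cd163 in 0.249% and 0.479% of UDSP-Hep and PBS cells. Arg1 was detected in 6.63% and 9.88% of the same T cells, Fn1 in 6.80% and 11.1%, and Chil3 in 3.81% and 7.57%. So Retnla and Cd163 were detected in a minority of the cells the rule found, while Arg1, Chil3 and Fn1 were detected in most of them. Chil3 is also on the list of classical monocyte markers used here, and was the highest of that list in members of both libraries.

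The rare markers were unevenly spread over the members. Retnla summed to 176 CPM in UDSP-Hep members, with 53.1% of its UMIs in 1 cell, and to 907 CPM in PBS members, with 15.1% in 1 cell. Cells with at least 10 Retnla UMIs numbered 2 among UDSP-Hep members and 36 among PBS members. Cells with at least 10 Cd163 UMIs numbered 6 and 18, and cells with at least 10 of both numbered 1 and 10. Hbegf, an epidermal growth factor receptor ligand, was broader, in 23 UDSP-Hep members (30.7%) and 170 PBS members (59.2%). None of Retnla, Cd163 and Hbegf was detected in 45 UDSP-Hep members and 90 PBS members, and all 3 were detected in 3 and 16.

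Genes known from monocytes were also detected, some of which T cells carried too. Ccr2, the receptor through which monocytes leave the marrow, was detected in 97.3% of UDSP-Hep members and 89.2% of PBS members, against 50.8% and 42.9% of T cells. Ly6c2, known from classical monocytes, was detected in 72.0% and 72.8% of members. Its level in members, 516 CPM in the UDSP-Hep library and 675 CPM in the PBS library, was below that in T cells, 779 and 737 CPM, so its detection does not set the members apart. Genes of the resident-macrophage list were mixed. Folr2, a folate receptor, was detected in 12.0% of UDSP-Hep members and 13.9% of PBS members, and Lyve1, a hyaluronan receptor, in 1.33% and 0.697%. Timd4, a receptor for dying cells, was detected in 0 of 75 UDSP-Hep members, which allows a share of cells with a UMI of up to 4% (3 counts), and in 0.697% of PBS members. Pf4, platelet factor 4, was detected in 36% and 27.9%. Eosinophil markers were close to nil, with a summed level over 6 genes of 0.843 CPM in UDSP-Hep members and 1.03 CPM in PBS members, and with Il5ra, Epx, Prg2 and Ear6 at 0 in both.

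**Figure D2:**
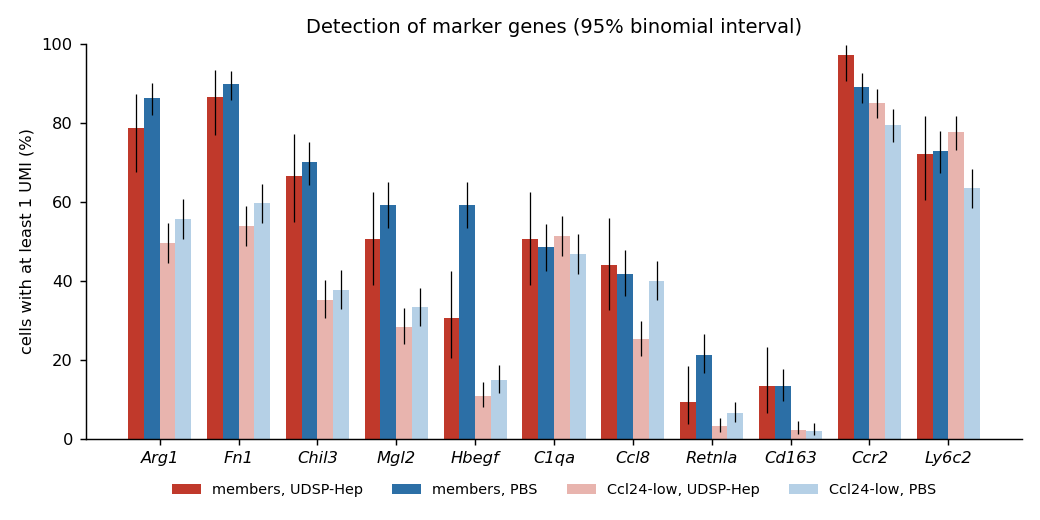
Share of cells with at least 1 UMI of 11 genes (y axis, %), for members of the UDSP-Hep and PBS libraries (dark bars) and Ccl24-low Mrc1 cells of the same libraries (light bars), with exact binomial 95% intervals. Arg1, Fn1 and Chil3 reach 66.7% or more in members of both libraries, while Retnla and Cd163 stay at 21.3% or below.

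To describe what accompanied high Ccl24, members were set beside Mrc1 cells that met every other clause but held 0 to 4 Ccl24 UMIs. These Ccl24-low cells numbered 389 in the UDSP-Hep library and 391 in the PBS library, at median depths of 12081 and 9988 UMIs. Of 5555 measured genes, 125 (2.25%) were higher in members in both libraries and 108 (1.94%) were lower in both. Because the rule used Ccl24 in these same cells, the values are descriptions. The 10 macrophage markers summed to 7824 CPM in members against 8897 CPM in Ccl24-low cells of the UDSP-Hep library, and 7263 against 10532 CPM in the PBS library. The 8 classical monocyte markers summed to 5190 against 4322 CPM and 6305 against 3904 CPM. Chil3, on that second list, made up 1801 against 221 CPM and 2505 against 338 CPM of these sums.

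The genes of alternative activation were prominent among the higher ones. Of 14 measured genes of that list, 8 were higher in both libraries, namely Retnla, Arg1, Chil3, Cd163, Il4ra, Pdcd1lg2, Fn1 and Tgm2, and Cd209a, a lectin of monocyte-derived dendritic cells, was lower. Of 12 measured genes of the resident-macrophage list, Cd163, Cbr2 and Maf were higher and 0 were lower. The alternative activation list's median log2 ratio was 0.88 in the UDSP-Hep library and 1.17 in the PBS library, beside medians of 0.01 and 0.0042 over all genes. Chil3 stood at 1801 CPM in members against 221 CPM in Ccl24-low cells of the UDSP-Hep library (8.15-fold), and at 2505 against 338 CPM in the PBS library (7.42-fold). Its near-copy Chil4 fell below the level required, and reads of the pair could be split between them. Arg1 stood at 2784 against 679 CPM in the UDSP-Hep library (4.10-fold) and at 3835 against 856 CPM in the PBS library (4.48-fold). Fn1 was 4.53-fold and 4.15-fold higher. Retnla was 3.15-fold and 7.95-fold higher. With only the highest member cell left out, its smaller log2 ratio was 0.56, under the fold. The Ccl24-low cells were left whole in that setting. In the UDSP-Hep library 1 of them held 88.1% of their Retnla UMIs, so the value of 0.56 is lowered by construction. Il4ra, the shared receptor chain for interleukins 4 and 13, was 2.05-fold and 2.12-fold higher, and Pdcd1lg2, the PD-1 ligand PD-L2, 2.13-fold and 2.95-fold. Mgl2, a galactose-type lectin, was 1.44-fold and 1.81-fold higher and so met the fold in the PBS library alone.

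Of 19 measured genes of interleukin 4 and 13 signalling and related transcription factors, Il4ra, Cish, Klf4, Maf and Bhlhe40 were higher and Nr1h3, the liver X receptor alpha, was lower. Cish, a feedback inhibitor of cytokine receptors, was 1.58-fold and 2.36-fold higher. Stat6 itself was level, at 95.3 CPM in members against 88.1 CPM in Ccl24-low cells of the UDSP-Hep library and 98.6 against 95.9 CPM in the PBS library.

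Hbegf stood at 137 CPM in members against 19.6 CPM in Ccl24-low cells of the UDSP-Hep library (7.03-fold), and at 447 against 58.0 CPM in the PBS library (7.70-fold). Gja1, the gap-junction protein connexin 43, was 15.5-fold and 9.14-fold higher, and was detected in 33.3% of UDSP-Hep members and 34.5% of PBS members. Cdh1, E-cadherin, an adhesion protein known in interleukin 4-treated macrophages, was 4.60-fold and 3.79-fold higher. Slc7a2, a transporter that takes up arginine, the substrate of Arg1, was 3.20-fold and 4.74-fold higher.

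Msx3, a homeobox gene, was 29.5-fold and 13.1-fold higher, at 61.6 against 2.09 CPM in the UDSP-Hep library and 103 against 7.85 CPM in the PBS library. Cd163 was 18.6-fold and 75.2-fold higher, carried by the few members that held it. Rnase2a, one of a family of near-identical ribonuclease genes and therefore uncertain, was 91.0-fold and 12.5-fold higher but was found in 4 UDSP-Hep members and 39 PBS members. Tmem26, Prps1 (a nucleotide synthesis enzyme), Clcn5 (an endosomal chloride transporter) and Matk (a kinase that restrains Src family kinases) were 3.19-fold to 6.62-fold higher.

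In matrix and clotting genes, Mmp19, Timp1, Fn1, F10 and F7 were higher among 13 measured and none was lower. F10, clotting factor X, stood at 452 against 259 CPM in the UDSP-Hep library and 550 against 240 CPM in the PBS library. Of 16 chemokines, Ccl7, Ccl8 and Ccl9 were higher and Ccl5, Cxcl9 and Cxcl10 were lower. Ccl8, a ligand of CCR8 in mice, stood at 3054 CPM in members against 770 CPM in Ccl24-low cells of the UDSP-Hep library and 3285 against 1698 CPM in the PBS library. Its detection was 44.0% in members against 25.2% in Ccl24-low cells of the UDSP-Hep library. In the PBS library it was nearly the same, 41.8% against 39.9%. A single cell held 26.0% of the Ccl8 UMIs of UDSP-Hep members and 8.42% of those of PBS members. Cxcl9, an interferon-gamma target that draws T cells, stood at 232 against 538 CPM and 156 against 590 CPM. Of 20 interferon-gamma response genes, Gbp6 and Cxcl9 were lower and none was higher. Of 12 MHC class II presentation genes, 0 met the fold in either direction, beside 2.25% higher and 1.94% lower over all genes.

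The lower genes included those of lipid handling and the lysosome. In the lipid-associated macrophage list of 19 measured genes, Gpnmb, Lpl, Apoe, Lipa and Ctsd were lower, and Fabp5, a fatty acid carrier, was higher. Apoe, which carries cholesterol out of cells, stood at 1743 CPM in members against 2863 CPM in Ccl24-low cells of the UDSP-Hep library and 674 against 2941 CPM in the PBS library. Lpl, lipoprotein lipase, stood at 59.9 against 288 CPM and 146 against 400 CPM. Ccnd1, a cyclin of the G1 phase, stood at 48.9 against 148 CPM and 38.2 against 197 CPM. Cd38, Pid1, Ccnd2, Hgsnat, Pltp, Pira2 and Ckb were also among the 10 lowest, at 0.245 to 0.441 of their Ccl24-low level. Pira2 belongs to a family of near-identical receptors and is uncertain. The lists of glycolysis and oxidative phosphorylation (20 measured genes each), heat-shock chaperones (15) and immediate early genes (19) had 0 genes that met the fold in both libraries. Over all genes 2.25% were higher and 1.94% lower, so lists this short would hold few calls at those shares.

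**Figure D3:**
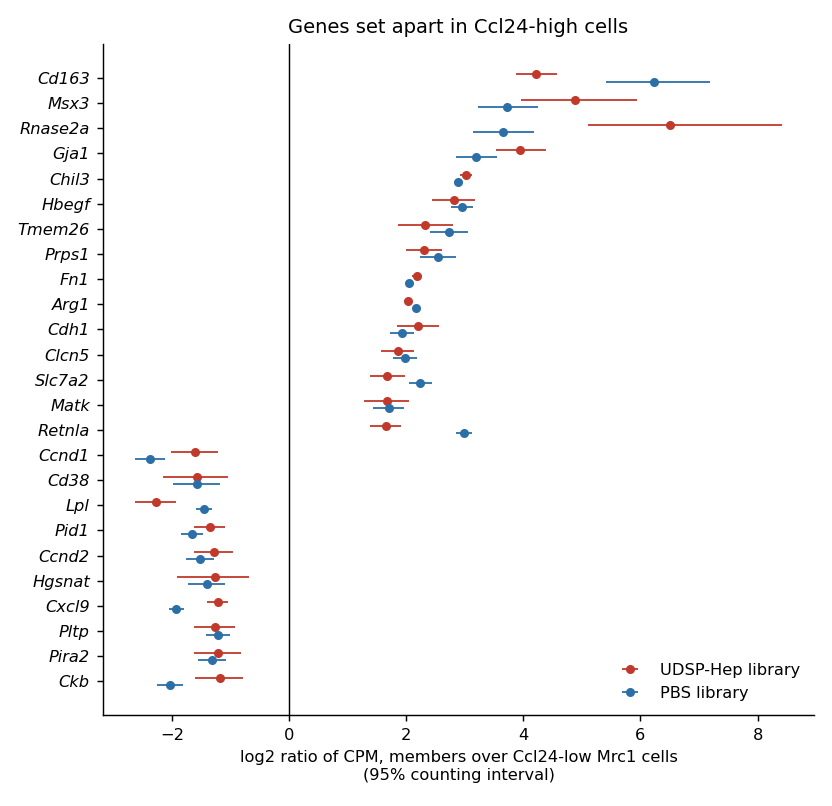
log2 ratio of CPM of members over Ccl24-low Mrc1 cells (x axis) for the 15 highest and 10 lowest genes, with 95% counting intervals, in the UDSP-Hep library (red) and the PBS library (blue). Chil3, Fn1 and Arg1 give nearly the same ratio in both libraries, while Cd163, Rnase2a and Retnla, which few cells carry, differ between them.

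Graded by Ccl24 rather than split, Chil3, Mrc1, Arg1 and Fn1 climbed at every step in both libraries. Cells were thinned to 3000 UMIs each, which left 296, 75, 62, 58 and 17 cells with 0, 1 to 4, 5 to 19, 20 to 99 and 100 or more Ccl24 UMIs in the UDSP-Hep library. The PBS library had 224, 131, 75, 164 and 115 such cells. Mean Chil3 per cell over these bands was 0.639, 1.17, 3.74, 5.07 and 10.5 UMIs in the UDSP-Hep library and 0.915, 2.0, 3.71, 5.40 and 9.44 UMIs in the PBS library. Other genes raised in members did not climb at every step. Retnla averaged 0.0169, 0.533, 0.435, 0 and 3 UMIs over the bands of the UDSP-Hep library, and Cdh1 averaged 0.294 in its top band against 0.483 in cells with 20 to 99. Apoe averaged 9.57 UMIs in the band at 0 and 4.53 in the top band of the UDSP-Hep library, and 10.2 and 1.94 UMIs in the PBS library. Hbegf stayed between 0.0574 and 0.155 UMIs per cell below 100 Ccl24 UMIs in the UDSP-Hep library and reached 1.35 above it, whereas in the PBS library it had already reached 1.08 in cells with 20 to 99 and then 2.06.

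**Figure D4:**
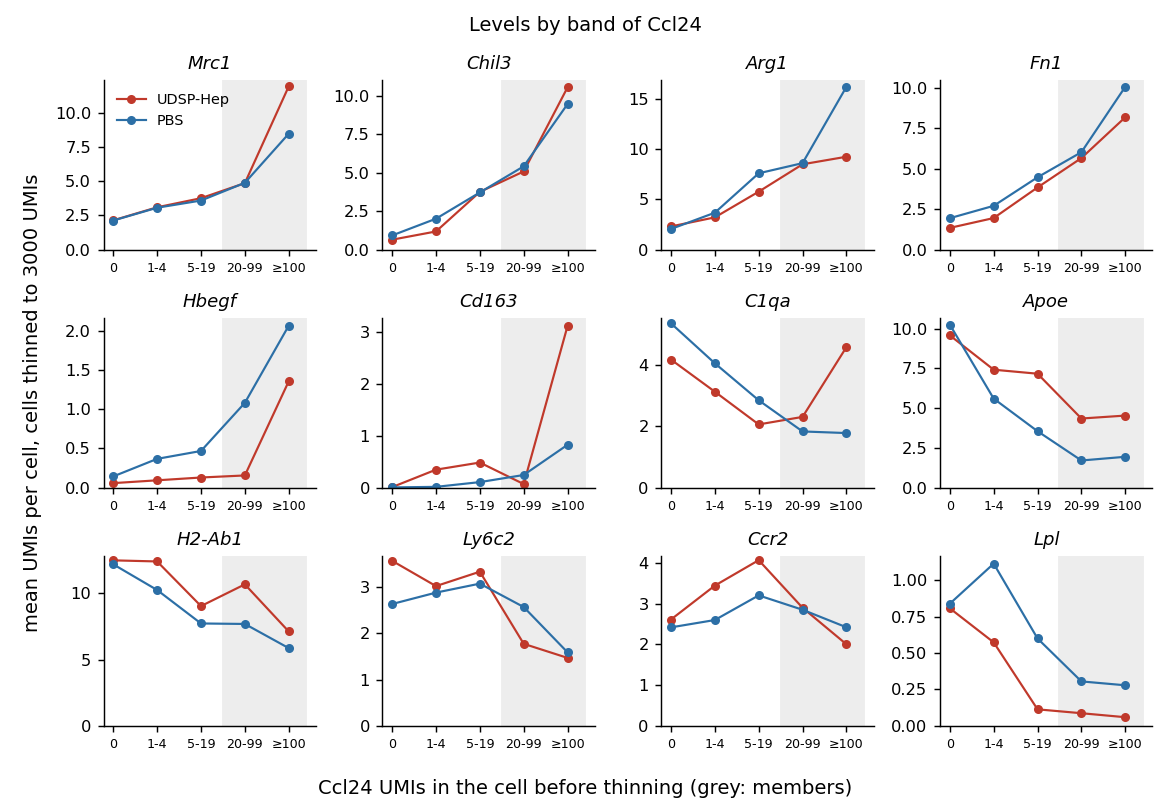
Mean UMIs per cell of 12 genes (y axes) after thinning to 3000 UMIs, against the cell's Ccl24 UMIs before thinning (x axis, 5 bands), for UDSP-Hep (red) and PBS (blue), with members shaded grey. Chil3, Arg1, Fn1 and Mrc1 climb with Ccl24 in both libraries and Apoe is lower at high Ccl24, while C1qa turns up to 4.59 UMIs in the top UDSP-Hep band of 17 cells.

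The members were not uniform. Complement C1q, whose 3 chains C1qa, C1qb and C1qc mark mature macrophages, was absent (0 UMIs) in 24 of 75 UDSP-Hep members (32.0%) and 103 of 287 PBS members (35.9%). At least 10 C1q UMIs were present in 34 UDSP-Hep members (45.3%) and 114 PBS members (39.7%), with median depths of 14944.5 and 15596.5 UMIs against 9560 and 10273 in the members without. Median Ccl24 was 69 UMIs in C1q-rich members against 44 in members without C1q in the UDSP-Hep library, and 77.5 against 77 in the PBS library. Ccl8 stood at 4104 CPM in C1q-rich against 1588 CPM in C1q-free members of the UDSP-Hep library, and at 5335 against 1070 CPM in the PBS library. In the same order its detection was 52.9% against 33.3% and 62.3% against 20.4%. A single cell held 26.0% of the Ccl8 UMIs of all UDSP-Hep members. Plac8, which stood in the Ly6c2 monocytes at 5460 and 5200 CPM, ran the other way, at 1089 CPM in C1q-rich against 2552 CPM in C1q-free members of the UDSP-Hep library, and at 1339 against 2603 CPM in the PBS library. Cdh1 stood at 86.6 CPM in C1q-rich against 248 CPM in C1q-free members of the UDSP-Hep library, and at 135 against 303 CPM in the PBS library. Members with 1 to 9 C1q UMIs, 17 and 70 in number, lay between for Ccl8, at 1682 CPM in the UDSP-Hep library and 1468 CPM in the PBS library, and for Plac8, at 2224 and 2075 CPM. For Cdh1 they stood at 74.7 CPM in the UDSP-Hep library, below the C1q-rich members, and at 279 CPM in the PBS library. This split and its genes were chosen after the values were seen.

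The 3 exclusion clauses set aside many further Ccl24-high Mrc1 cells, chiefly in the PBS library. Without them, 109 UDSP-Hep cells and 684 PBS cells met the Ccl24, Mrc1 and lineage clauses, and members made up 68.8% and 42.0% of these. The matrix metalloproteinase clause was failed by 15 and 145 of these cells, the heat-shock clause by 0 and 123, and the hypoxia clause by 27 and 318. The 0 of 109 UDSP-Hep cells allows a share of up to 2.75% (3 counts). PBS members had Arg1 at 3835 CPM and Vegfa at 89.6 CPM, against 6642 and 319 CPM in the 169 PBS cells that failed the hypoxia clause alone. Mrc1 stood at 1987 CPM in PBS members against 2328 CPM in those cells, Fn1 at 2444 against 2812 CPM and Chil3 at 2505 against 2879 CPM.

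Members were rarer in the UDSP-Hep library. They were 0.977% of kept UDSP-Hep cells (interval 0.769 to 1.22%) and 4.02% of kept PBS cells (interval 3.58 to 4.51%), a ratio of 0.243 (interval 0.189 to 0.313). Mrc1 cells that met the other clauses were themselves 6.88% of UDSP-Hep cells and 10.8% of PBS cells. Within those Mrc1 cells, members were 75 of 528 in the UDSP-Hep library (14.2%) and 287 of 772 in the PBS library (37.2%), a ratio of 0.382 (interval 0.304 to 0.480). With the 3 exclusion clauses dropped the ratio was 0.148. The clauses and the threshold are set on measured genes, and each share comes from 1 pooled library, so tumour, library and treatment cannot be told apart.

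Between members of the 2 libraries, 532 of 5810 measured genes (9.16%) were higher in UDSP-Hep members and 219 (3.77%) were lower. At 2-fold, 140 (2.41%) were higher and 53 (0.912%) were lower. The UDSP-Hep sum rests on 75 cells and 1185648 UMIs and the PBS sum on 287 cells and 3874471 UMIs, so a single cell weighs more in the UDSP-Hep values. Markers of other cell types moved with the groups, and their part in the results was not tested. The 8 neutrophil markers summed to 1095 CPM in UDSP-Hep members and 185 CPM in PBS members. The same markers summed to 796 CPM in UDSP-Hep Ccl24-low cells and 94.2 CPM in PBS ones. S100a9, a calcium-binding protein abundant in neutrophils, was detected in 33.3% of UDSP-Hep members and 2.09% of PBS members, at 516 CPM and 2.32 CPM, and in T cells stood at 117 CPM and 24.6 CPM. The 6 natural killer cell markers summed to 234 CPM in UDSP-Hep members and 53.2 CPM in PBS members, led by Gzma at 164 and 37.4 CPM. These levels rest in part on single cells. A single cell held 57.7% of the Gzma UMIs of UDSP-Hep members and 19.3% of those of PBS members. Gzma was still detected in 41.3% of UDSP-Hep members and 9.06% of PBS members. For S100a9, 1 UDSP-Hep member held 39.4% of the UMIs and the top 5 held 90.8%. For Nkg7, 1 UDSP-Hep member held 43.04%. S100a9, S100a8, G0s2, Hdc, Gzma, Nkg7 and Il2rb, known from neutrophils, basophils or cytotoxic lymphocytes, were among the 15 genes furthest above equality. In a second count, chosen after the data were seen, 30 UDSP-Hep members and 12 PBS members that held any S100a8 or S100a9 were left out, which left 45 and 275 cells. It gave 605 genes higher and 353 lower, of which 328 and 150 were among the main 532 and 219. Gzma then stood at 31.2 CPM in UDSP-Hep members and 32.0 CPM in PBS members, and Hdc at 7.33 and 12.3 CPM, so both lost their direction. Nkg7 stood at 31.2 and 10.4 CPM and Il2rb at 42.2 and 11.2 CPM, so both kept it, and G0s2 was left with 7 UMIs and 1 UMI. With the highest cell of each gene left out of each library, a choice also made after the data were seen, 328 genes were higher and 364 lower. By construction this takes more from the sum of 75 cells than from that of 287. With the 3 exclusion clauses dropped, which gave 109 and 684 cells, 333 of the main 532 and 120 of the main 219 were called again.

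The other genes of the 15 furthest above equality were Abca1, Tpm3-rs7, Fpr2, Ifitm1, Plet1, Tnfaip2, Clec4e and Nr4a2. Tnfaip2, a target of tumour necrosis factor, stood at 472 CPM in UDSP-Hep members and 129 CPM in PBS members and was detected in 74.7% and 45.6%. Fpr2, a formyl peptide receptor, was detected in 32.0% and 4.18%. Plet1 was found in 2 UDSP-Hep members and 4 PBS members, and Tpm3-rs7 is a near-copy of Tpm3 and uncertain. The 15 furthest below were Ch25h, Fabp4, Ddx4, Retnla, Mt2, Cd209a, Hbegf, Dmkn, Arap2, Ifit1, Ccl7, Ccl2, Timp1, Cd81 and Ccl12. Of these, Arap2 was detected in 22.7% of UDSP-Hep members and 49.5% of PBS members, and Timp1, which inhibits metalloproteinases, in 26.7% and 49.1%.

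Of the 14 measured genes of alternative activation, Retnla, Mgl2, Cd209a, Pdcd1lg2 and Tgm2 were lower and Cd163 was higher, with a median log2 ratio of -0.47, beside 0.05 over all genes. Cd163 had nearly the same detection in both and 33.7% of its UDSP-Hep UMIs in 1 cell, and without the highest cells its ratio was 1.26, under the fold. Without the S100a8- or S100a9-holding members, the ratios of Tgm2 (0.684) and Pdcd1lg2 (0.677) no longer met the fold. Mgl2 stood at 296 CPM in UDSP-Hep members and 648 CPM in PBS members (ratio 0.457, interval 0.407 to 0.511). Pdcd1lg2 stood at 127 and 220 CPM (ratio 0.580). Arg1, Chil3 and Fn1 had ratios of 0.726, 0.719 and 0.718 and did not meet the fold. Of the 19 measured signalling genes, Socs1, Cish and Myc were lower and Klf4 was higher. Over all genes 3.77% were lower and 9.16% higher, so a list this short would hold few calls at those shares. Cish, a STAT target, stood at 102 CPM in UDSP-Hep members and 193 CPM in PBS members (ratio 0.528), and Stat6 at 95.3 and 98.6 CPM (ratio 0.967). The Retnla ratio of 0.194 rested on 7 and 61 cells.

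Hbegf stood apart among growth factors. It measured 137 CPM in UDSP-Hep members and 447 CPM in PBS members (ratio 0.308, interval 0.260 to 0.362). Ccl24-low cells had 19.6 CPM in the UDSP-Hep library and 58.0 CPM in the PBS library, a like ratio of 0.337, and without the S100a8- or S100a9-holding members the ratio was 0.323. Vegfa, which drives vessel growth, went the other way, at 271 CPM in UDSP-Hep members and 89.6 CPM in PBS members (3.02-fold). This ratio covers only cells that met the hypoxia clause, which 27 of 109 UDSP-Hep and 318 of 684 PBS Ccl24-high Mrc1 cells failed. PBS cells that failed it alone had more Vegfa than PBS members, as given above. How far the clause shaped the ratio was not tested. Of 8 measured growth factors, Vegfa and Inhba were higher and Hbegf and Nrg1 were lower, beside 9.16% higher and 3.77% lower over all genes. Inhba did not meet the fold without the highest cells (ratio 1.27), and neither Inhba (1.28) nor Nrg1 (0.873) did so without the S100a8- or S100a9-holding members.

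Chemokines went both ways. The CCR2 ligands Ccl2, Ccl7 and Ccl12, which draw monocytes, were lower together. Ccl2 stood at 1448 CPM in UDSP-Hep members and 3271 CPM in PBS members (ratio 0.443), and Ccl7 at 1662 and 3808 CPM (ratio 0.437). Ccl4 was also lower, at 703 and 1154 CPM. Cxcl2, which draws neutrophils, stood at 1506 and 748 CPM (2.01-fold), Cxcl16 at 358 and 174 CPM, and Pf4 at 717 and 214 CPM. Ccl5 was 3.65-fold higher, with 45.7% of its UDSP-Hep UMIs in 1 cell. Cxcl3 just met the fold, with 64.9% of its UDSP-Hep UMIs in 1 cell. Without the S100a8- or S100a9-holding members the Ccl2 ratio was 0.627 and the Ccl7 ratio 0.601. Among members with at least 50 Ccl24 UMIs, Ccl12 had a log2 ratio of -0.56 and no longer met the fold.

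Inflammatory genes were mostly higher in UDSP-Hep members. Of 12 measured, 9 were higher (Il1b, Il1rn, Tnf, Ptgs2, Nlrp3, Nfkbiz, Tnfaip3, Sod2 and Clec4e) and Il6 was lower, with a median log2 ratio of 0.73. Over all genes 9.16% were higher and 3.77% lower. The intervals for Tnf (0.999 to 2.30) and Il6 (0.345 to 1.01) included equality. Il1b, interleukin 1 beta, was detected in 94.7% of UDSP-Hep members and 70.0% of PBS members, at 3041 and 1167 CPM (2.60-fold). Ptgs2, the prostaglandin enzyme cyclooxygenase 2, stood at 439 and 189 CPM (2.32-fold). Il1rn, which blocks the interleukin 1 receptor, stood at 653 and 386 CPM (1.69-fold). Ccl24-low cells gave nearly the same ratios, 2.47 for Il1b, 2.26 for Ptgs2 and 1.53 for Il1rn. Without the S100a8- or S100a9-holding members, Il1b was 2.14-fold higher and Ptgs2 2.13-fold, while Tnf (1.49-fold) and Nfkbiz (1.35-fold) no longer met the fold. Nlrp3 did not meet it without the highest cells (1.44-fold).

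Immediate early genes, which respond within minutes to stimuli and to tissue dissociation, were higher in 8 of 19 (Fos, Fosb, Klf2, Klf6, Nr4a1, Nr4a2, Nr4a3 and Dusp1) and lower in none. The shares over all genes were 9.16% higher and 3.77% lower. Nr4a2, an orphan nuclear receptor, stood at 425 CPM in UDSP-Hep members and 121 CPM in PBS members (3.51-fold). Its detection was 72.0% and 44.3%. Nr4a3 (1.42-fold) and Dusp1 (1.39-fold) did not meet the fold without the S100a8- or S100a9-holding members. Ccl24-low cells had ratios of 2.04 for Nr4a2, 2.05 for Fos and 2.47 for Fosb.

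Lipid genes split. Of 19 measured, Gpnmb, Cd9, Apoe, Apoc2, Abca1 and Abcg1 were higher in UDSP-Hep members and Fabp4, Fabp5 and Lpl were lower. The shares over all genes were 9.16% higher and 3.77% lower. Without the S100a8- or S100a9-holding members Gpnmb had a ratio of 0.822 and Abcg1 of 1.07. Abca1, a pump that exports cholesterol, stood at 128 CPM in UDSP-Hep members and 14.7 CPM in PBS members (8.71-fold, interval 6.39 to 12.0). It was detected in 38.7% and 9.41% of them. In Ccl24-low cells its levels were 153 and 78.5 CPM, a ratio of 1.95. Apoe stood at 1743 and 674 CPM in members (2.59-fold), whereas Ccl24-low cells had 2863 and 2941 CPM (ratio 0.974). The difference between those ratios was not tested. Ch25h, an enzyme that makes 25-hydroxycholesterol, was detected in 3 UDSP-Hep members and 51 PBS members, at 10.1 and 162 CPM. Fabp4 was detected in 2 and 28.

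Of 17 type I interferon response genes, Isg15 was higher (1.46-fold without the highest cells) and Ifit1, Ifit2, Rsad2 and Usp18 were lower, with a median log2 ratio of -0.26. MHC class II presentation (12 measured), complement (12) and oxidative phosphorylation (20) had 0 genes that met the fold in either direction. Over all genes 9.16% were higher and 3.77% lower, so lists this short would hold few calls at those shares. In the resident-macrophage list, Cd163, Gas6, Stab1, Pf4, Clec4n and Wwp1 were higher and F13a1 was lower of 12 measured, with a median log2 ratio of 0.59. Of these, Gas6 turned to a ratio of 0.685 without the highest cells and 0.704 without the S100a8- or S100a9-holding members, and F13a1 to 0.810 in the second case. In the iron list, Hmox1, Tfrc, Ncoa4 and Mt2 were lower and Fth1, Slc11a2, Trf and Cd163 were higher of 14. Ccr2 (ratio 1.02) and Csf1r (ratio 1.09) were level.

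**Figure D5:**
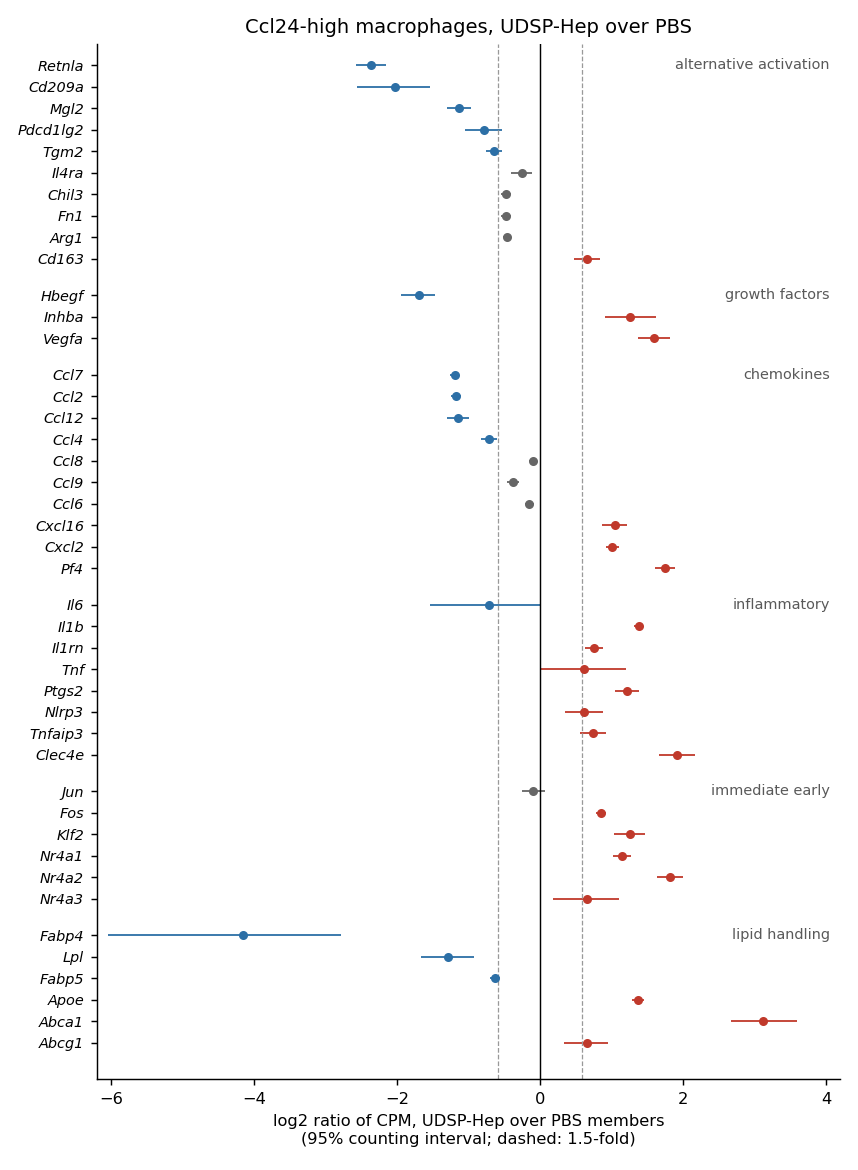
log2 ratio of CPM in UDSP-Hep over PBS members (x axis) for selected genes of 6 groups, with 95% counting intervals. Red points are at least 1.5-fold higher, blue points at least 1.5-fold lower and grey points neither, with the fold marked by dashed lines. Among the genes drawn, those of alternative activation other than Cd163 and the Ccl2, Ccl7 and Ccl12 chemokines lie left of 0. The inflammatory genes drawn other than Il6 lie right of it. Msr1, Socs3, Clec10a and Ccl17 of the alternative activation list are not drawn. None of these undrawn genes met the fold in the values drawn here, which cover all members. Without the highest cells their ratios were 1.09, 1.07, 0.659 and 0.616. That setting takes more from the smaller UDSP-Hep sum and so lowers the ratios by construction.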

How the data were processed

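The members and gene lists were chosen with earlier results of these data known. The deposited matrices hold raw UMI counts, whole numbers for 32285 genes in each barcode, as the authors' files give them. The submitters' processing notes name Cell Ranger 7.0.0, genome build mm10 and Seurat, without a role. The rule was applied to barcodes with under 10% mitochondrial UMIs, a minimum of 500 UMIs and a minimum of 200 genes, the kept cells. No clustering was used. The libraries held 64241224 UMIs over 7872 barcodes (UDSP-Hep) and 74685827 UMIs over 7379 barcodes (PBS), with medians of 5641 and 7890 per barcode, and 25 barcodes occurred in both, none of them a member.

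UMIs were summed over the cells of a population in each library and divided by their total to give CPM. Genes were measured where the mean of both CPM was at least 20 and at least 20 UMIs were summed, and mitochondrial genes and genes of the rule were left out. Intervals are exact Poisson for CPM, exact conditional binomial for ratios of CPM, exact binomial (Clopper-Pearson) for shares and Katz log for ratios of shares, all at 95%. They cover counting error only, and cells vary more than that. No p-value was computed, because each group is 1 library. Named genes are those of 22 lists and the marker lists, the 15 highest and 15 lowest between libraries by the interval bound nearest equality with at least 50 CPM and 50 UMIs, and the 15 highest and 10 lowest in both libraries against Ccl24-low cells. The calculation was tested on simulated data. Scrublet's own threshold marked 0.0129% and 0.0138% of UDSP-Hep and PBS barcodes and so did not work. Taking the highest scores at 0.8% per 1000 barcodes marked 6 and 11 members, which were kept in the main values. Gene positions are from GENCODE M21 on GRCm38, in which 32158 gene identifiers matched. Python 3.11.15, numpy 2.4.6, scipy 1.17.1, pandas 2.3.3, scanpy 1.11.5 and matplotlib 3.10.9 were used. A few genes of the lists are not reported here.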

Additional observations from a re-analysis of the deposited data

How the results depend on the processing

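The ratio of UDSP-Hep to PBS members, as a share of kept cells or of Mrc1 cells, was below 1 in every alternative run, while members as a share of all Ccl24-high Mrc1 cells had a ratio of 1.64. The ratio was 0.325 when members needed 5 Ccl24 UMIs after thinning to 3000 UMIs, 0.148 with the 3 exclusion clauses dropped, 0.327 in cells from 5000 UMIs, 0.382 among Mrc1 cells, and 0.152 with members holding S100a8 or S100a9 left out (an alternative added after seeing the data). That last setting took 30 of 75 and 12 of 287 members and so lowers the ratio by construction; with such cells left out of the totals too it was 0.211. Genes higher in UDSP-Hep members numbered 4113 with no filter on low values (1 UMI added), 90 from 100 CPM, 140 at a fold of 2, 920 with members thinned and 328 without the highest cell of each gene (also added). Genes lower numbered 334 with at least 50 Ccl24 UMIs, and 1008, 51, 53, 672 and 364 under the same 5 settings, and 353 without S100a8- or S100a9-holding cells. Leaving out the highest cell removes a larger share of 75 cells than of 287. The 1 UMI added in the setting with no filter weighs more in the smaller sum. By construction it tilts calls of rare genes toward higher in UDSP-Hep members, and toward higher in members than in Ccl24-low cells. Median-of-ratios scaling gave 443 higher and 282 lower, a split of calls further toward lower than the main 532 and 219. Totals near the main ones could hide a change of genes. With the 3 exclusion clauses dropped, 516 genes were higher and 207 lower, of which 333 and 120 were among the main 532 and 219. In cells from 5000 UMIs more of the main calls stayed, with 523 higher and 234 lower, of which 492 and 208 were among them. Genes higher in members than in Ccl24-low cells numbered 761 with no filter, 43 from 100 CPM, 40 at a fold of 2 and 80 without the highest member cell. That last setting left the Ccl24-low cells whole, so it lowers the count by construction. Gzma reversed, to a log2 ratio of -0.0354 when thinned and -0.0367 without S100a8- or S100a9-holding cells, and Hdc to -0.75 in the second case. Of 982 alternative values of named genes, 775 moved by less than their interval, 204 moved further and 3 reversed. The fold of 2 and the minimum of 100 CPM change only which genes are called. Ratios of named genes could not move under these settings, and they are counted among the 775. Retnla in members over Ccl24-low cells fell to 0.56 on the log2 scale without the highest member cell, with the Ccl24-low cells left whole. Other causes were not tested. No paired analysis was possible because each group is 1 library with no replicate. With 75 UDSP-Hep members, genes near 20 CPM rest on few UMIs.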

Other observations

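High Ccl24 was also found outside the members. At least 20 Ccl24 UMIs were held by 191 kept cells in the UDSP-Hep library and 992 in the PBS library. Of these, 37 and 187 had fewer than 2 Mrc1 UMIs, and 45 and 121 had enough Mrc1 but at least 1 UMI of Cd3e, Cd79a or Flt3. Monocytes defined by Ly6c2 and Ccr2 without C1q, 782 and 1096 in number, had Ccl24 at 155 CPM in the UDSP-Hep library and 971 CPM in the PBS library. Hbegf in the same monocytes stood at 38.2 CPM and 112 CPM, a ratio of 0.340, close to the ratios of 0.308 in members and 0.337 in Ccl24-low cells. These are values of 1 library each, with no test.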
